A study of Mus musculus with 6 samples.

Results

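The 10 genes described here, Lpl, Fabp4, Fabp5, Mgll, Cd36, Plin2, Pparg, Gpnmb, Trem2 and Spp1, are a set of lipid uptake and lipid handling genes of macrophages, followed in macrophages and in endothelial cells of mouse pancreatic tumours. They were chosen from the treated against vehicle values of the macrophages in these same libraries, so their values in that contrast are given as a description and no test of them in it is reported. Each symbol matched 1 of the 32285 features in all 6 libraries. The tumours came from KPC mice, which carry KrasLSL.G12D/+ and p53LSL.R172H/+, alleles silent until Cre removes a stop cassette, together with Pdx1-Cre tg/+, whose promoter is active in the pancreatic lineage. The Cre driver therefore acts in the epithelium, and macrophages and endothelial cells are host cells of the tumour. Both groups share this genotype: 3 vehicle mice were given corn oil and water, and 3 treated mice were given trametinib (1 mg/kg), a MEK inhibitor, and hydroxychloroquine (40 mg/kg), a lysosomal inhibitor, all by mouth. Mice entered at a tumour size of 4 to 7 mm on ultrasound, and tissue was collected 24 h after treatment. Every mouse gave 1 droplet single-cell library, and numbers 1 to 3 within a group name different mice.

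Macrophages take up lipid along several routes. Lipoprotein lipase outside the cell splits triglyceride carried by lipoproteins, CD36 brings in fatty acids and oxidised lipoproteins, and engulfed cells deliver membrane lipid to the lysosome. Inside the cell, fatty acid binding proteins ferry the acids to lipid droplets, to oxidation and to the nuclear receptor PPARG, while in capillary endothelium FABP4 and CD36 carry fatty acids across the vessel wall. TREM2, GPNMB and osteopontin (encoded by Spp1) mark the lipid-laden macrophages known from fat tissue, arteries and tumours.

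Libraries held 22996012 to 126645602 UMIs (unique molecular identifiers, each counting 1 captured transcript) in 2384 to 12207 barcodes, and 37002 cells were kept. Pairs of libraries shared 0 to 22 cell barcodes. Vehicle 1 stood apart in its barcodes: 12.8% to 25.9% of barcodes shared their leading 7 bases with a barcode of the other library where vehicle 1 was one of the pair, against 99.8% to 100% for the other pairs. Treated 1 and treated 2 were the closest pair of mice, with a standard deviation of log2 ratios of 0.245 over 2538 genes in macrophages (0.543 to 1.03 in the other 14 pairs) and 0.220 over 3231 genes in endothelial cells (0.381 to 1.15). Nothing in the labels says whether they were housed or processed together, and results that change without vehicle 1 or with treated 1 and 2 summed as 1 sample are given as such. Macrophages and monocytes numbered 474, 1542 and 3122 cells in vehicle 1, 2 and 3 and 804, 1082 and 2541 in treated 1, 2 and 3. Endothelial cells numbered 47, 307 and 248 in vehicle mice and 221, 207 and 177 in treated mice. The 12 macrophage and monocyte markers summed to 8905 to 14202 CPM (UMIs of the gene per 1000000 UMIs of the class) in vehicle macrophages and to 8941 to 15221 CPM in treated ones, and all 12 were detected. The 12 endothelial markers summed to 7291 to 9656 CPM and 9870 to 10272 CPM in the endothelial class, and all 12 were detected. The macrophage class includes monocytes: the monocyte gene Ly6c2 stood at 95.7, 86.3 and 54.7 CPM in vehicle mice and at 10.4, 6.40 and 15.4 CPM in treated mice, and its part in the results was not tested. CPM values are compared between mice and classes within a gene, never between genes, and a class sum cannot tell apart more cells carrying a transcript from more transcript in each cell.

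Promoter sequence is shown for 3 of the genes that stand for different steps, a receptor (Cd36), a lipase (Mgll) and a lipid sensor (Trem2), because their windows before the start site held a match to a searched motif. RefSeq promoters (GRCm38.p6) matched 7 of the 10 genes with 11 entries, each of 250 bases before to 50 after a start site; Lpl, Fabp4 and Fabp5 had no entry. Capitals mark motif matches, and each line gives the 250 bases before the start, 5′ to 3′ on the gene's strand. The Cd36 window is chr5:17835897-17836146 on the minus strand, inside the gene and outside its annotated exons, and holds TGACCT, a single nuclear receptor element, starting 228 bases before the start site. The Mgll window is chr6:88724162-88724411 on the plus strand, directly before the gene and over an exon of the antisense transcript Gm26588, and holds CACGTG, the E-box of the MITF and TFE factors, from base 44 before the start. The Trem2 window is chr17:48346151-48346400 on the plus strand, and holds TGACCT from base 68 and TGAATCA from base 9 before the start. TGAATCA matches the searched AP-1 form TGANTCA, in which N, the middle base, may be any base.
Cd36: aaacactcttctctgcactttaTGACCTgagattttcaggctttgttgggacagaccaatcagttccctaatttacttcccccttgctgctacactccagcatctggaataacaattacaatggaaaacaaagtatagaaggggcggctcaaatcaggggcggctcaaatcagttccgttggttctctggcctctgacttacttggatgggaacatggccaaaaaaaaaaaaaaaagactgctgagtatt
Mgll: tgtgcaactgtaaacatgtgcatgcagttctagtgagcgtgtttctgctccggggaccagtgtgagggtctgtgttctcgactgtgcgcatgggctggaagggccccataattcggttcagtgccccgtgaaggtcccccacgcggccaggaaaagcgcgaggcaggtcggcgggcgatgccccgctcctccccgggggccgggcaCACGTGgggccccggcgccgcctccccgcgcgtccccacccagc
Trem2: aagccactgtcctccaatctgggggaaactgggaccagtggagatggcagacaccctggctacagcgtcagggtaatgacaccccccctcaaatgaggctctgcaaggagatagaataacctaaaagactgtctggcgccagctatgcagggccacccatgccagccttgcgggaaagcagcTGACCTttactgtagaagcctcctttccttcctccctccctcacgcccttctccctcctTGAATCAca

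Both strands were searched for 4 motifs. The single nuclear receptor element (AGGTCA or TGACCT) was also found in the Plin2 promoter and in 2 of the 3 Pparg entries, and over all 32851 RefSeq mouse promoters of this length 16.3% hold it. A direct repeat of that element with 1 base between, the form bound by PPARG with its partner RXR and named DR1, was in none of the 11 entries and in 0.0396% of all promoters. The E-box was also found in the Plin2 promoter, across its start site, and is held by 7.15% of promoters. The AP-1 form TGANTCA was also found in the Gpnmb promoter, past the start site, and is held by 7.81%. A DR1 match contains the single element, so these 2 searches overlap. The Spp1 entries, the other Mgll entry and the third Pparg entry held no match to any of the 4. A match describes letters in the window and not a bound site.

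In macrophages, Lpl and Fabp4 had the largest fitted differences of the 10 genes, with all treated mice above all vehicle mice. Lpl (ENSMUSG00000015568, chr8:68880491-68907448), the secreted enzyme that splits triglyceride in lipoproteins, stood at 18.9, 14.8 and 22.5 CPM in vehicle 1, 2 and 3 and at 611, 187 and 228 CPM in treated 1, 2 and 3. Every treated mouse lay above every vehicle mouse, and treated 1 held the highest level. The means were 18.7 ± 3.84 CPM and 342 ± 234 CPM (SD, n = 3 each), a fitted log2 fold change of 4.23 ± 0.55 (SE) in edgeR. It was 3.47 without treated 1 and at most 4.53 without any other mouse.

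Among fatty acid carriers, Fabp4 (ENSMUSG00000062515, chr3:10204088-10208576), which encodes the binding protein best known from fat cells and capillaries, stood at 10.5, 5.86 and 6.09 CPM in vehicle macrophages and at 203, 75.9 and 112 CPM in treated ones. The groups did not overlap, and the log2 fold change was 4.22 ± 0.51. Its neighbour on chromosome 3 and paralogue Fabp5 (ENSMUSG00000027533, chr3:10012548-10016607), the epidermal form that macrophages also use, stood at 199, 294 and 415 CPM in vehicle mice and at 1222, 1059 and 510 CPM in treated mice. The highest vehicle mouse (415 CPM) and the lowest treated mouse (510 CPM), both number 3, lay close, and the log2 fold change was 1.69 ± 0.40. Cd36 (ENSMUSG00000002944, chr5:17781690-17888801), the scavenger receptor for fatty acids and oxidised lipoproteins, stood at 6.30, 1.83 and 12.0 CPM against 40.8, 42.1 and 7.98 CPM. Treated 1 and 2 were high and treated 3 lay among the vehicle mice, so the groups overlapped at a log2 fold change of 2.18 ± 0.86, which moved between 1.66 and 3.12 as single mice were left out.

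The genes of storage and release differed in size. Mgll (ENSMUSG00000033174, chr6:88724412-88828360), the monoglyceride lipase that completes triglyceride breakdown, stood at 1.68, 4.40 and 3.77 CPM in vehicle and 64.8, 28.0 and 35.2 CPM in treated macrophages (log2 fold change 3.68 ± 0.41). Plin2 (ENSMUSG00000028494, chr4:86648386-86670060), the coat protein of lipid droplets in most cells, stood at 269, 197 and 350 CPM and at 512, 380 and 533 CPM (0.81 ± 0.30). Neither gene overlapped between the groups, but the highest vehicle and lowest treated mice lay close for Plin2 (350 and 380 CPM) and far apart for Mgll (4.40 and 28.0 CPM). Pparg (ENSMUSG00000000440, chr6:115360951-115490399), the nuclear receptor that senses fatty acids, was low in all mice, with 3.36, 4.64 and 2.14 CPM in vehicle and 15.3, 8.63 and 21.8 CPM in treated macrophages. Its groups did not overlap, with a log2 fold change of 2.26 ± 0.42.

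The 3 markers of lipid-associated macrophages did not behave alike. Gpnmb (ENSMUSG00000029816, chr6:49036546-49070929), a membrane glycoprotein of lysosome-rich macrophages, stood at 24.8, 5.86 and 17.7 CPM in vehicle and at 205, 130 and 160 CPM in treated mice, without overlap (3.37 ± 0.57). Trem2 (ENSMUSG00000023992, chr17:48346401-48354147), the receptor that senses lipids and debris, stood at 326, 259 and 186 CPM against 398, 281 and 156 CPM. The 2 groups of Trem2 values lay over each other, with a log2 fold change of 0.12 ± 0.42 that was −0.25 without treated 1. Spp1 (ENSMUSG00000029304, chr5:104435118-104441050), which encodes osteopontin, stood at 654, 743 and 2398 CPM in vehicle and at 1521, 663 and 2524 CPM in treated mice. Mouse number 3 was the highest of each group, the groups overlapped, and the log2 fold change of 0.35 ± 0.59 was −0.11 without treated 3 and 1.14 without vehicle 3.

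**Figure D1:**
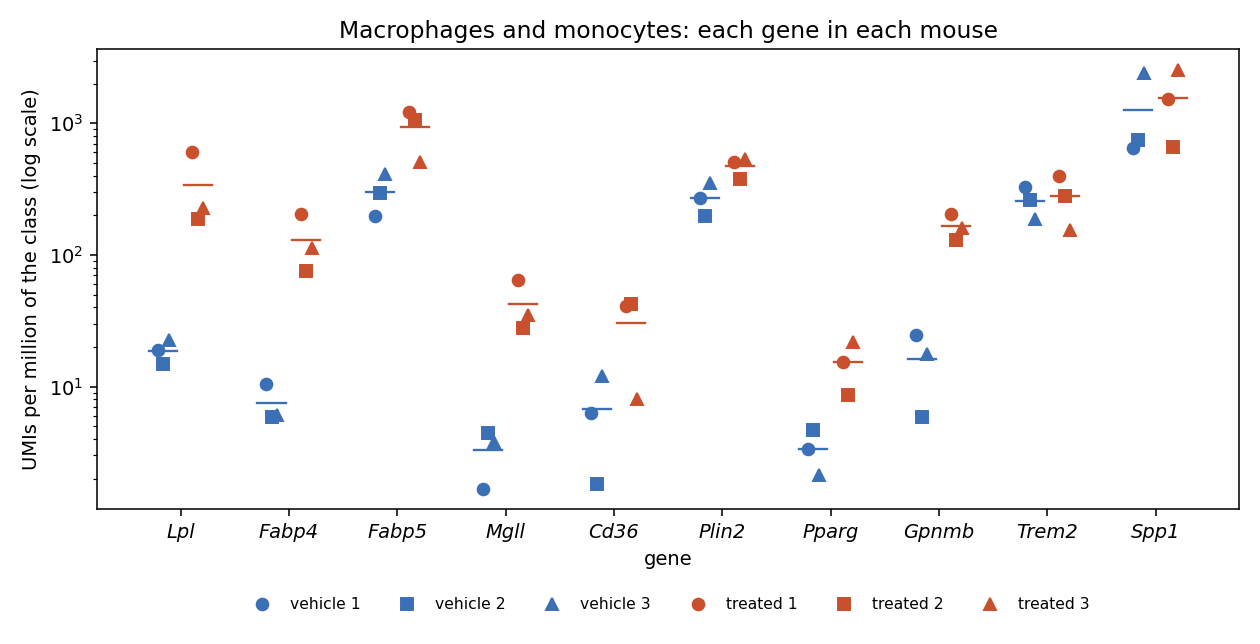
Level of each of the 10 genes in macrophages of each mouse, as CPM on a log axis; points are mice (vehicle blue, treated red, one shape per mouse number) and short lines are group means. Points of treated and vehicle mice are apart for Lpl, Fabp4, Fabp5, Mgll, Plin2, Pparg and Gpnmb and overlap for Cd36, Trem2 and Spp1.

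In all, 7 of the 10 genes had every treated mouse above every vehicle mouse, where 6.01% of the 11550 genes fitted did, and 0 had every treated mouse below, where 11% of genes did. The count was 7 or 8 with any 1 mouse left out. The median log2 fold change of the 10 genes was 2.22, and that of all genes 0.0065. These counts describe genes that the same contrast had chosen, and nothing is read from them. The nearest genes on either side of the boundary of non-overlap were Plin2, inside it, and Cd36, outside it through treated 3.

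RNA of other cell types was measured beside these values. Fabp4 and Mgll are abundant in endothelial cells, and their mean macrophage levels were 3.07% and 6.60% of their endothelial levels. The 12 endothelial markers summed to 44.1 to 78.4 CPM in vehicle macrophages and to 53.1 to 58.2 CPM in treated ones, inside the vehicle range. The endothelial gene Cdh5 stood at 0.799 to 3.67 CPM. The part of endothelial RNA in the Fabp4 and Mgll values was not tested. Of the 10 adipocyte markers, Lep and Adrb3 were at 0 in macrophages of all mice, 8 were detected in any mouse, and the list summed to 14.0 to 20.1 CPM in vehicle and 11.4 to 59.6 CPM in treated mice. Treated 3 alone held the fat-cell genes Cfd (22.8 CPM) and Car3 (20.04 CPM) above 2 CPM, and Adipoq, which defines fat cells, stood at 1.84 CPM there. Without treated 3, the log2 fold changes of Lpl and Fabp4 were 4.48 and 4.35, beside 4.23 and 4.22 with all mice. The part of fat-cell RNA in these values was not tested. The tumour cell markers summed to 100 to 481 CPM in vehicle and 48.2 to 62.3 CPM in treated macrophages.

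Sub-clusters whose C1qa, C1qb and C1qc summed to at least 500 CPM, complement genes that monocytes mostly lack, made up 92.4%, 77.2% and 76.7% of the class in vehicle mice and 96.5%, 96.5% and 97.4% in treated mice. Within them Lpl stood at 20.3, 15.6 and 26.5 CPM in vehicle and 628, 194 and 232 CPM in treated mice, and the groups stayed apart. The sub-cluster described below as A was among them with 617 CPM of these complement genes, close to the limit. It held 71.3%, 35.3% and 34.9% of the Lpl UMIs of treated 1, 2 and 3, so these levels depend on where the limit was set.

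The share of macrophages with at least 1 UMI of a gene was compared at equal depth, because the median macrophage held 4243, 4850 and 3085 UMIs in vehicle and 6684, 2557 and 12218 UMIs in treated mice. Each cell was thinned to 2000 UMIs and shallower cells were left out. Cells that stayed are given as those with plus those without an Lpl UMI. In vehicle 1, 2 and 3 they were 13 + 344 of 474, 28 + 1351 of 1542 and 67 + 2342 of 3122. In treated 1, 2 and 3 they were 121 + 439 of 804, 46 + 544 of 1082 and 329 + 2084 of 2541. The part left out thus differed between mice and was largest in treated 2. Lpl was then found in 3.64%, 2.03% and 2.78% of vehicle macrophages and in 21.6%, 7.80% and 13.6% of treated ones. The exact 95% intervals, which cover counting error only, ran from 1.95% to 6.15% in vehicle 1 and from 5.76% to 10.3% in treated 2, the nearest pair of mice, so these 2 intervals overlapped. Fabp4 was found in 2.80%, 0.725% and 0.747% of vehicle and 7.86%, 4.24% and 8.08% of treated macrophages. For Mgll the shares were 0.560%, 0.580% and 0.581% against 4.64%, 1.53% and 5.22%. Treated shares lay above vehicle shares for these 3 genes, Pparg and Gpnmb, 5 of the 10, and for 4 at 1000 UMIs and 6 without thinning. How many of all genes do so by this measure was not computed, so nothing is read from these counts. Fabp5 lay at 24.6% in treated 3, inside the vehicle range of 21.8% to 31.3%. Trem2 was found in 44.0%, 37.6% and 29.2% of vehicle and 40.2%, 34.4% and 23.9% of treated macrophages. Without thinning, the Lpl shares were 6.12%, 3.57% and 3.68% against 23.3%, 8.13% and 24.7%.

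B lymphocytes, which should lack most of these genes, served as the background of free RNA, with 371, 23 and 348 thinned cells in vehicle 2, treated 1 and treated 3. Lpl was found in 1, 0 and 2 of them, with median depths of 2336, 3412 and 3446 UMIs. Spp1 was found in 52.8% of B lymphocytes of vehicle 2, a share as high as the 51.6% of that mouse's macrophages, and in 10.6% of those of treated 3. The Spp1 share of macrophages in vehicle 2 was thus not above that background, while the level in their summed UMIs was 743 CPM against 416 CPM in the B lymphocytes of that mouse.

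The UMIs of several of these genes lay in few macrophages. Among the macrophage sub-clusters, 2 were singled out after their values were seen: sub-cluster A (295 cells), led by Fabp1, Fabp4, Lpl, Mgll and Car4, and sub-cluster B (385 cells), led by Gpnmb, the elastase Mmp12, Mfge8 and Fabp5. Clusters were built from these same genes, so their levels describe and test nothing. Sub-cluster A held 0, 8 and 0 cells of vehicle 1, 2 and 3 and 62, 12 and 213 cells of treated 1, 2 and 3. Sub-cluster B held 3, 11 and 41 vehicle and 39, 28 and 263 treated cells. Both together made up 0.633%, 1.23% and 1.31% of vehicle macrophages and 12.6%, 3.70% and 18.7% of treated macrophages.

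In treated mice those cells held most of the Lpl UMIs: 87.9%, 81.2% and 85.2%, against 13.3%, 30.6% and 30.9% in vehicle mice. They held 92.1%, 87.6% and 48.7% of treated Fabp4 UMIs, 93.2%, 94.9% and 61.1% of treated Mgll UMIs, and 75.3%, 84.7% and 82.5% of treated Gpnmb UMIs. Trem2 was spread more widely, with 40.7%, 27.7% and 31.2% of its treated UMIs in them. The like measure for these shares is the part of all macrophage UMIs in the same cells. It was 30.04%, 12.4% and 23.1% in treated 1, 2 and 3, above their share of cells, and 0.962%, 2.07% and 1.55% in vehicle mice. Treated shares of Lpl, Fabp4, Mgll and Gpnmb lay far above it, and those of Trem2 lay nearer to it. Some genes lay more in 1 of the 2 sub-clusters: sub-cluster A held 89.4%, 85.1% and 41.0% of treated Mgll UMIs, while sub-cluster B held 51.7%, 73.4% and 64.0% of treated Cd36 UMIs. Pparg followed Mgll, with 69.2%, 42.6% and 36.1% of its treated UMIs in sub-cluster A. Lpl and Gpnmb were not divided in the same way in every mouse. For Lpl, sub-cluster A held 71.3%, 35.3% and 34.9% and sub-cluster B 16.6%, 45.9% and 50.4% in treated 1, 2 and 3. For Gpnmb these were 45.3%, 33.8% and 3.65% and 29.9%, 50.9% and 78.8%.

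**Figure D2:**
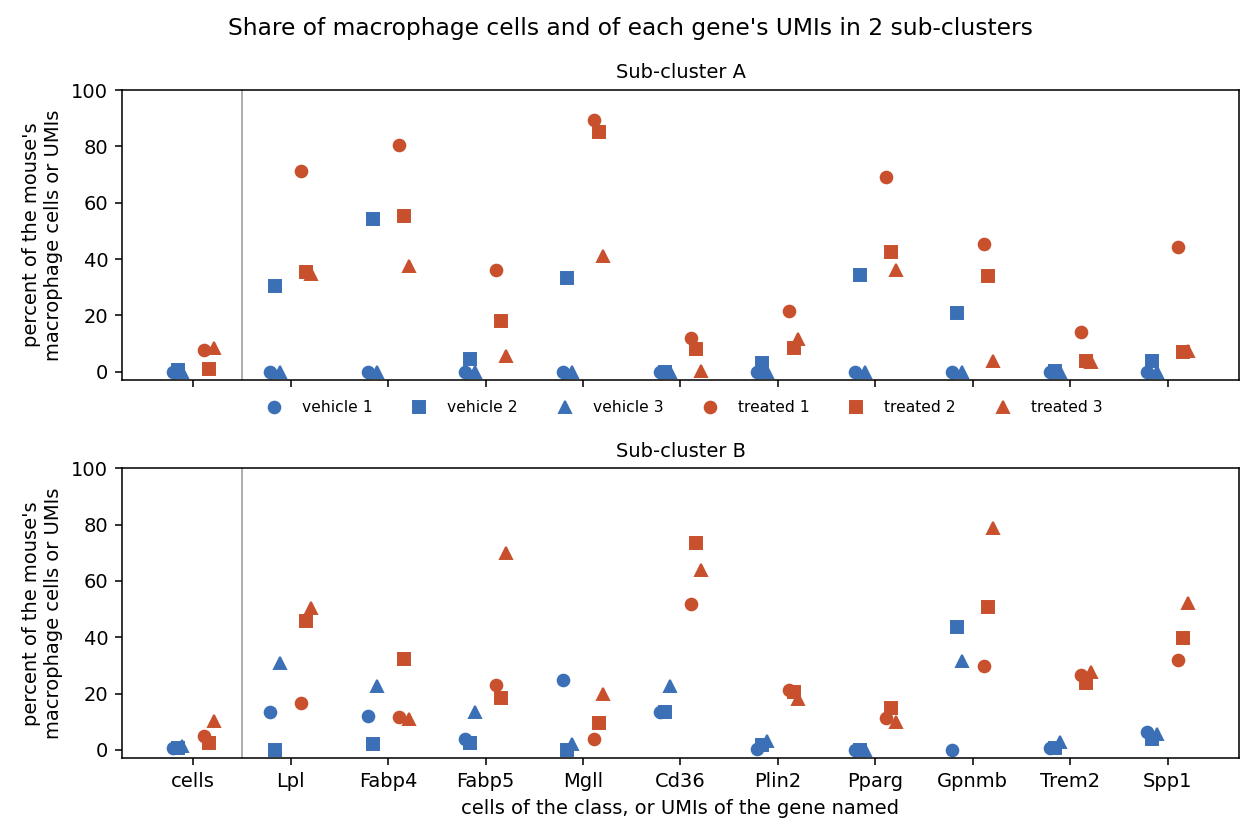
Share of each mouse's macrophages (left of the grey line) and of each gene's macrophage UMIs (right) that fell in sub-cluster A (top) and sub-cluster B (bottom); points are mice, vehicle blue and treated red, and the axes are percent of the mouse's macrophage cells or UMIs. Treated points for Mgll lie between 41.0% and 89.4% in sub-cluster A, and those for Gpnmb between 29.9% and 78.8% in sub-cluster B.

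Levels within the 2 sub-clusters were set side by side for the mice that had such cells. In sub-cluster B, Lpl stood at 262, 0 and 447 CPM in 3, 11 and 41 vehicle cells and at 954, 1087 and 907 CPM in treated cells. Gpnmb stood there at 0, 261 and 359 CPM and at 578, 838 and 1000 CPM. Spp1 was high there in both groups, with 4277, 2907 and 8932 CPM and 4560, 3317 and 10439 CPM. In sub-cluster A, the 8 cells of vehicle 2 held Lpl at 415 CPM, and treated cells at 2243, 1470 and 759 CPM. Vehicle values in these cells rest on few cells, and no mouse other than vehicle 3 had 20 or more vehicle cells in either. Genes known from alveolar macrophages, 12 in a list added after the leading genes were seen, were high in sub-cluster A. They summed there to 9000, 10283 and 29347 CPM in treated 1, 2 and 3, and to 13955 CPM in the 8 cells of vehicle 2. In sub-cluster B of treated mice they summed to 398, 440 and 3135 CPM. Sub-cluster A of treated 1, 2 and 3 held 12, 9 and 11 of the 12, and sub-cluster B 9, 5 and 11. In sub-cluster A of treated mice Chil3 led, at 5509, 7101 and 24731 CPM, with the scavenger receptor Marco at 1453, 1239 and 1814 CPM. Over all macrophages the list summed to 1164, 518 and 542 CPM in vehicle and 2259, 962 and 14867 CPM in treated mice. Krt79 was at or below 1 CPM in every treated mouse, and Siglecf, which defines alveolar macrophages, stood at 2.94, 7.12 and 20.7 CPM in sub-cluster A of treated mice. These genes were not limited to sub-cluster A in treated 3: Chil3 stood at 11058 to 31238 CPM in 6 other macrophage sub-clusters of that mouse, and Marco at 3109 CPM in 1 of them, of 113 cells. Those 6 stayed in when sub-clusters A and B were left out, and the part of such cells in the results was not tested.

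With both sub-clusters left out, an alternative added after seeing the data, 3 of the 10 genes kept every treated mouse above every vehicle mouse, Lpl, Fabp4 and Pparg. The 2 sub-clusters were singled out after their high levels of these genes were seen, so a lower count followed largely from that choice. How many of all genes stay apart without them was not computed. Lpl then stood at 16.5, 10.5 and 15.8 CPM in vehicle and 105, 40.2 and 43.7 CPM in treated macrophages, a ratio of means of 4.43. Fabp4 had a ratio of means of 6.48 and Pparg of 2.74. Treated 3, with the Chil3-rich sub-clusters, was the highest of the treated mice for Fabp4 (74.8 CPM) and Pparg (15.3 CPM). In treated 1 and 2, Fabp4 stood at 22.8 and 10.8 CPM against at most 9.32 CPM in vehicle mice, and Pparg at 4.28 and 4.198 CPM against at most 3.39 CPM. Mgll stood at 1.27, 2.99 and 3.74 CPM against 6.32, 1.64 and 17.8 CPM, with overlap. Gpnmb stood at 25.0, 2.12 and 12.3 CPM against 72.4, 22.8 and 36.6 CPM, with treated 2 below vehicle 1. Fabp5 stood at 193, 279 and 365 CPM in vehicle and 714, 769 and 162 CPM in treated mice, so treated 3 lay below every vehicle mouse. Plin2 stood at 271, 191 and 343 CPM against 419, 308 and 489 CPM, with overlap. Cd36 stood at 5.51, 1.62 and 9.40 CPM against 21.2, 8.94 and 3.70 CPM, with overlap. For Spp1 the ratio of means was 0.621 and for Trem2 0.918, both with overlap.

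Within single treated cells the genes occurred together. In cells thinned to 2000 UMIs, those with an Lpl UMI numbered 121, 46 and 329 in treated 1, 2 and 3. Of these, 31.4%, 28.3% and 21.6% also held a Fabp4 UMI, against 1.4%, 2.2% and 6.0% of cells without Lpl. Gpnmb was found in 30.6%, 39.1% and 31.9% of cells with Lpl and in 3.2%, 2.4% and 6.5% of those without. Trem2, which did not separate the groups, was also found more in cells with Lpl, in 54.5%, 60.9% and 28.6% against 36.2%, 32.2% and 23.1%. Cells of a mouse share a library, and these shares are a description.

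Endothelial cells carried several of the genes at higher levels than macrophages, and there the groups mostly overlapped. Fabp4 stood at 3150, 1350 and 2651 CPM in vehicle and 1442, 1567 and 3309 CPM in treated endothelial cells, a log2 fold change of −0.30 ± 0.41. Fabp5 stood at 225, 243 and 406 CPM against 141, 150 and 280 CPM (−0.75 ± 0.33), with treated 3 among the vehicle mice. Cd36 stood at 237, 48.6 and 63.4 CPM in vehicle and 167, 232 and 319 CPM in treated mice, and vehicle 1, which had 47 endothelial cells and 160317 UMIs, was the mouse that overlapped (1.35 ± 0.64; 2.02 without vehicle 1).

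Among the genes that passed the filter on low counts, Mgll was the exception to the overlap, with 380, 184 and 232 CPM in vehicle and 410, 470 and 413 CPM in treated endothelial cells. Vehicle 1 lay close under the lowest treated mouse, and the log2 fold change was 0.65 ± 0.28. Lpl was low, with 0, 3.56 and 8.33 CPM against 6.19, 5.44 and 35.0 CPM, and its log2 fold change of 1.47 ± 0.91 was −0.01 without treated 3. The 0 of vehicle 1 allowed up to 18.7 CPM at its depth, above every other value but that of treated 3. Plin2 stood at 74.9, 51.4 and 63.4 CPM and at 54.5, 68.0 and 58.1 CPM (−0.09 ± 0.22). Pparg stood at 18.7, 11.5 and 5.55 CPM and at 11.8, 11.6 and 19.5 CPM (0.57 ± 0.40). Spp1 stood at 56.1, 269 and 102 CPM and at 196, 124 and 75.4 CPM (−0.34 ± 0.53). Gpnmb and Trem2 were at or under 2.31 CPM in every mouse and did not pass the filter. Gpnmb had 0, 2 and 1 UMIs in vehicle and 3, 2 and 2 UMIs in treated mice, so its treated levels of 0.908 to 1.86 CPM, above the vehicle levels of 0 to 0.790 CPM, rest on no more than 3 UMIs a mouse.

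**Figure D3:**
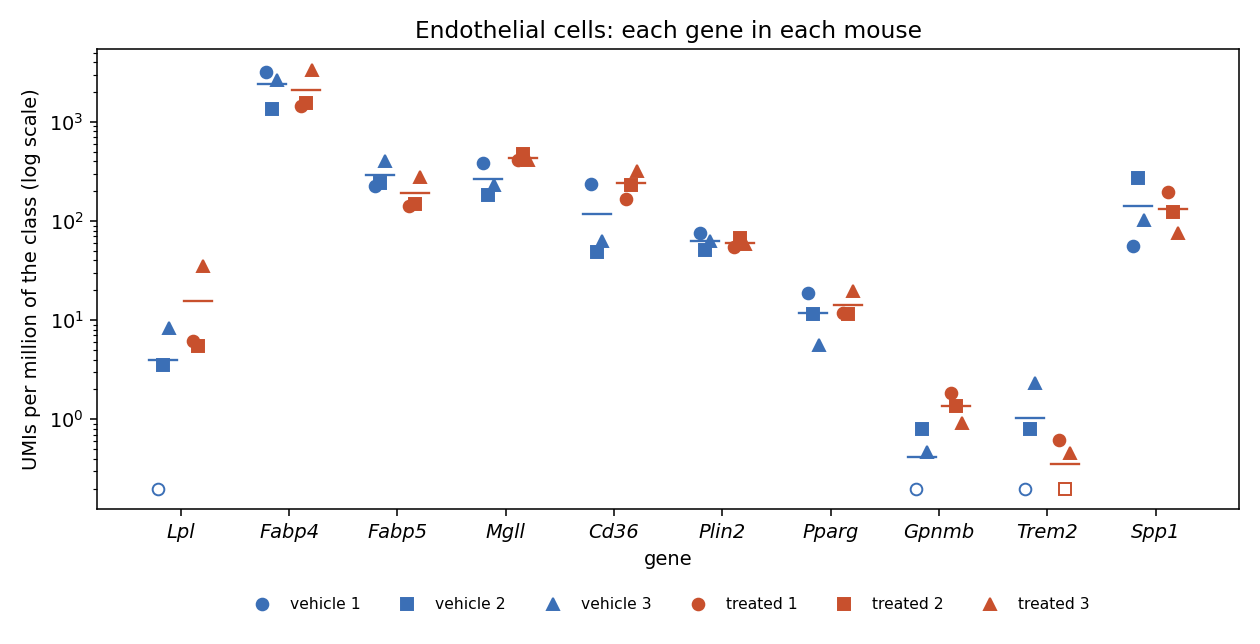
Level of each of the 10 genes in endothelial cells of each mouse, as CPM on a log axis; points are mice, short lines are group means, and open symbols at the bottom are counts of 0. Of the 8 genes that passed the filter on low counts, Mgll alone has all treated points (410 to 470) above all vehicle points (184 to 380); Gpnmb, outside that filter, has 0 to 3 UMIs in each mouse.

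Of the 8 genes that passed the filter, 1 had every treated mouse above every vehicle mouse, where 18.3% of 10105 genes did, and 0 had every treated mouse below, where 9.98% did. The edgeR test passed 0 of the 8, where it passed 0.346% of genes as higher and 1.57% as lower, and 2090 genes were at an unadjusted p under 0.05. DESeq2 gave an adjusted p to 5 of the 8 and passed 0, where it passed 1.54% of the 2267 genes with an adjusted p as higher and 8.07% as lower. The median log2 fold change of the 8 genes was 0.24, beside 0.019 for all genes. Macrophage markers in the endothelial class summed to 74.9 to 131 CPM in vehicle and 71.4 to 107 CPM in treated mice, and Adipoq was at 0 in all 6.

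The response of the 2 cell classes was set against each other in a fit over 12 sums whose terms were the mouse, the class and the interaction of class with group. The differences, endothelial minus macrophage on the log2 scale, were negative for the 7 genes with a mean endothelial level of at least 10 CPM, a limit set after the values were seen. They were −4.41 ± 0.60 for Fabp4, −2.73 ± 0.50 for Mgll and −2.35 ± 0.60 for Fabp5. They were −1.70 ± 0.40 for Pparg, −0.995 ± 0.271 for Plin2, −0.61 ± 1.16 for Cd36 and −0.52 ± 1.07 for Spp1. For Cd36 and Spp1 the sign changed in at least 1 alternative. The median over the 7 genes was −1.70, and −0.011 over all 11631 genes. Endothelial counts of Lpl, Gpnmb and Trem2 were too low to place their response there. This difference contains the macrophage contrast that chose the genes, so it is a description and no test of them is given. Over all genes the edgeR test of this term passed 0.146% as higher and 0.146% as lower, with 1637 at an unadjusted p under 0.05.

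**Figure D4:**
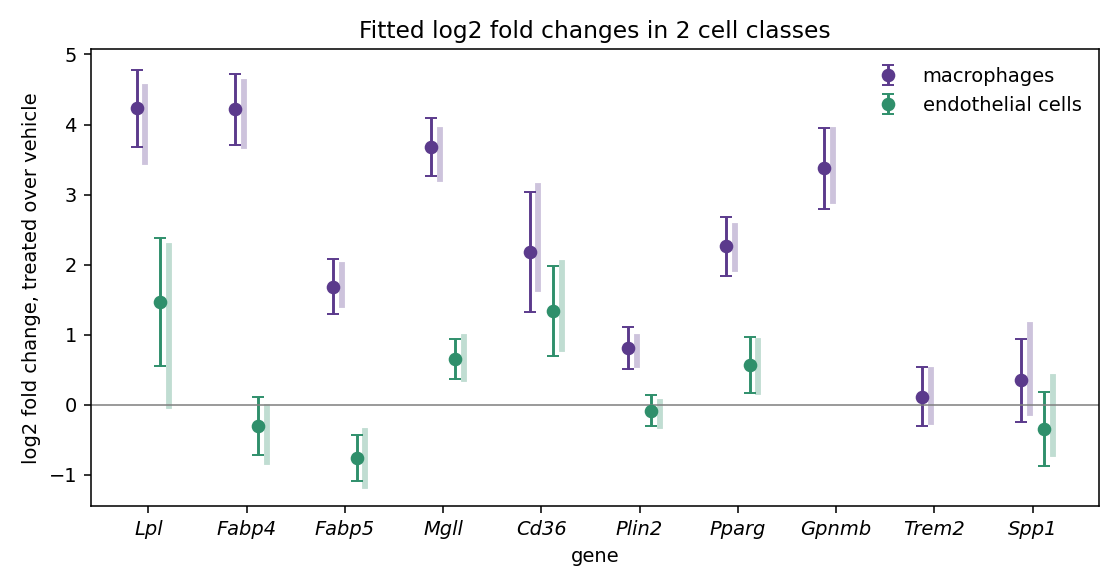
Fitted log2 fold changes, treated over vehicle, of each gene in macrophages (purple) and endothelial cells (green); error bars are 1 SE and the pale bars beside them span the values with each mouse left out in turn. Macrophage points for Lpl, Fabp4, Mgll and Gpnmb lie between 3.37 and 4.23, and Gpnmb and Trem2 have no endothelial point.

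Across the cell classes with at least 20 cells in a mouse, the genes had different homes. Means over mice of both groups hide the difference between groups in macrophages, so classes are set beside macrophages within each group (mean ± SD, n = 3 unless given). Lpl was highest in fibroblasts: at 131 ± 22.3 CPM in vehicle mice, where macrophages held 18.7 ± 3.84 CPM, far below, and at 479 ± 274 CPM in treated mice, where macrophages held 342 ± 234 CPM, within the spread. Fibroblast Lpl stood at 114, 122 and 156 CPM in vehicle and 730, 519 and 188 CPM in treated mice, again without overlap. Fabp4 was highest in endothelial cells (2245 ± 897 CPM over 6 mice), then in pericytes and smooth muscle of the 2 mice that had enough cells (784 ± 280 CPM). Below these, fibroblasts (44.3 ± 24.5 CPM) lay above macrophages (7.48 ± 2.61 CPM) in vehicle mice, and in treated mice macrophages (130 ± 65.5 CPM) and fibroblasts (78.6 ± 14.1 CPM) lay within their spread. Mgll was highest in endothelial cells in both groups. In vehicle mice fibroblasts (79.3 ± 37.8 CPM) and neutrophils (33.7 ± 26.0 CPM) followed, with macrophages at 3.28 ± 1.42 CPM. In treated mice fibroblasts (59.4 ± 58.2 CPM), macrophages (42.6 ± 19.5 CPM) and neutrophils (39.2 ± 3.76 CPM) lay within their spread. Cd36 was highest in endothelial cells too, with 116 ± 105 CPM in vehicle and 240 ± 76.2 CPM in treated mice, where macrophages held 6.71 ± 5.10 and 30.3 ± 19.3 CPM.

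Fabp5 in vehicle mice was highest in conventional dendritic cells (1386 ± 1140 CPM, 2 mice), then pericytes (1130.5 CPM, 1 mouse), with macrophages at 303 ± 108 CPM. In treated mice macrophages had the highest mean, 930 ± 373 CPM. Dendritic cells of 1 treated mouse stood at 731 CPM, within that spread, and pericytes of 1 treated mouse at 483 CPM. Plin2 was highest in macrophages and neutrophils, which lay within their spread at 272 ± 76.5 and 270 ± 264 CPM in vehicle mice and at 475 ± 83.2 and 300 ± 101 CPM in treated mice. Pparg was low everywhere, with 19.7 ± 7.43 CPM in tumour and ductal cells and 13.1 ± 5.23 CPM in endothelial cells over 6 mice, and 3.38 ± 1.25 CPM in vehicle and 15.2 ± 6.59 CPM in treated macrophages. Gpnmb was highest in macrophages in treated mice, at 165 ± 37.4 CPM against 19.2 ± 10.0 CPM in fibroblasts, and stood at 16.1 ± 9.55 CPM in vehicle macrophages. Trem2 was highest in macrophages in both groups (257 ± 69.9 and 278 ± 121 CPM), above fibroblasts (32.2 ± 31.1 and 78.2 ± 81.5 CPM). Spp1 was highest in tumour and ductal cells (3325 ± 1742 CPM over 6 mice), then acinar cells (2181 ± 1855 CPM, 3 mice) and macrophages (1417 ± 872 CPM over 6 mice), each within the spread of the next.

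**Figure D5:**
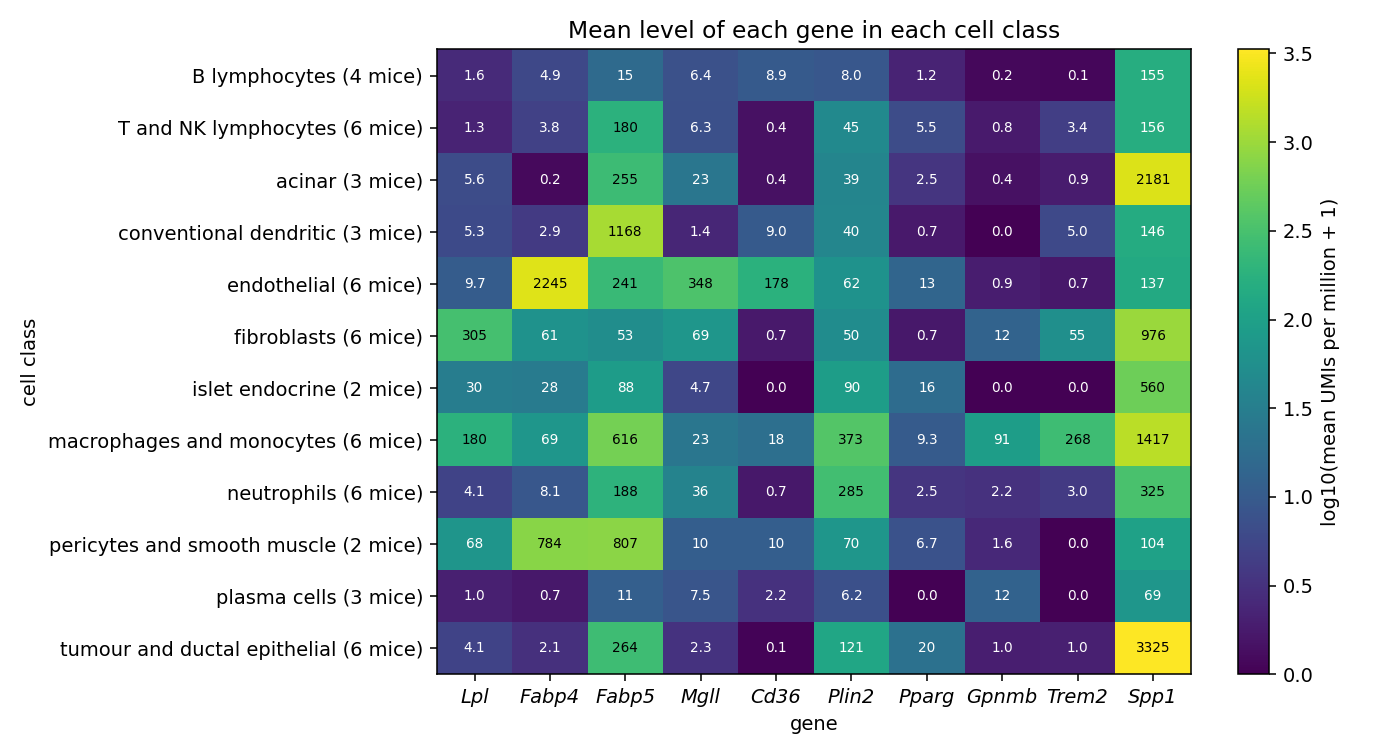
Mean level of each gene in each cell class over the mice of both groups, printed as CPM and coloured by log10 of the mean plus 1; rows are classes with the number of mice that had at least 20 such cells, and colours should be compared down a column only. Fabp4, Mgll and Cd36 peak in endothelial cells, Gpnmb and Trem2 in macrophages, Lpl in fibroblasts and Spp1 in tumour and ductal cells.

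In fibroblasts, 4 of the 10 genes, Lpl, Fabp4, Plin2 and Gpnmb, had every treated mouse above every vehicle mouse, where 18.9% of the 8287 fibroblast genes with a mean of at least 10 CPM did. Of the 10, Cd36 (0.724 CPM) and Pparg (0.694 CPM) had fibroblast means under that limit. Fibroblast Gpnmb stood at 9.70, 1.32 and 5.31 CPM against 30.7, 14.5 and 12.5 CPM. Fibroblast Spp1 stood at 836, 984 and 2840 CPM in vehicle and 699, 372 and 124 CPM in treated mice, every treated mouse below, where 7.13% of genes did. Spp1 in T and NK lymphocytes stood at 96.5, 562 and 138 CPM in vehicle and 18.5, 47.4 and 71.1 CPM in treated mice, every treated mouse below. The share of genes that did so in that class was not computed. B lymphocytes of vehicle 2, used above as the background of free RNA, held Spp1 at 416 CPM. The part of free RNA in the T and NK values was not tested.

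The genes whose levels were most like each of the 10 were found over 55 sums of a mouse and a class, among 5865 or 5866 genes (Pearson r of log2(CPM + 1); sums of a mouse share a library). Lpl was most like Htra3 (r = 0.836), Col14a1 (0.810) and Colec12 (0.803). Fabp4 was most like Nid2 (0.906), Gng11 (0.889) and Dysf (0.852), Cd36 like Vwf (0.802), Tie1 (0.798) and Fam167b (0.782), and Mgll like Fgd5 (0.744), Ramp2 (0.731) and Aplnr (0.729). Gpnmb was most like Trem2 (0.704), Marco (0.686) and Apoe (0.679), and Trem2 like Ccl24 (0.850), Apoe (0.820) and Cx3cr1 (0.793). Plin2 was most like the protease gene Ctsd (0.831), Atp6v1e1 (0.820) and Aldoa (0.818), and Spp1 like Anxa4 (0.797), Nupr1 (0.768) and Sox9 (0.762). Fabp5 (Gcnt2, Efhd2 and Arhgap18) and Pparg (Pdgfb, Pkp4 and Cav2) had lower values, of 0.676 to 0.694 and 0.689 to 0.747.

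The rest of the pathway was read from 7 lists of 87 genes, of which 76 were fitted in macrophages. Adjusted over all genes, edgeR's quasi-likelihood test passed 0 of the 76, where it passed 0% of genes in either direction. An unadjusted p under 0.05 was found for 25 of them (23 higher) and for 1186 genes in all. DESeq2 passed 11 of the 76 as higher and 1 as lower, where it passed 1.05% of 11523 genes as higher and 1.41% as lower. Of the 76, 60 had a positive log2 fold change, and the median was 0.36, beside 0.0065 over all genes. Every treated mouse lay above every vehicle mouse for 21 of the 76 and below for 2, where 6.01% and 11% of the 11550 genes fitted did. The 15 lipid-associated macrophage genes had the highest median of the lists, 0.92, with 14 positive, 10 without overlap and 7 passed by DESeq2 as higher. The lists were chosen with earlier results of these libraries known, so their direction is not independent evidence.

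Among receptors and lipase partners, the most abundant genes had fitted values within about 1 SE of 0. Cxcl16 and Msr1, the 2 most abundant scavenger receptors, had log2 fold changes of 0.18 ± 0.38 and 0.16 ± 0.21 in macrophages, and 7 of the 9 receptors fitted were positive (median 0.18). Apoe, the apolipoprotein that macrophages secrete, stood at 24173, 9845 and 8642 CPM against 21270, 26716 and 15797 CPM (0.52 ± 0.52), and Apoc2, the activator of lipoprotein lipase, at −0.28 ± 0.67. The list of 6 lipase partners fitted had a median of 0.45, with 5 positive. Among 9 genes of fatty acid transport and activation (median 0.19, 7 positive), the acyl-CoA binding protein Dbi stood at 0.07 ± 0.24 and the ligase Acsl5 at 0.11 ± 0.18.

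Among 14 genes of droplets and lipolysis (median 0.48, 9 positive), Lipa, the lysosomal acid lipase, stood at 36.1, 63.9 and 75.9 CPM in vehicle and 293, 200 and 177 CPM in treated macrophages. Its log2 fold change of 1.99 ± 0.31 missed the edgeR threshold (adjusted p = 0.0905) and passed in DESeq2 (adjusted p = 7.5e-07), with a range of 7.5e-07 to 0.383 over 16 alternatives, 2 of which passed. Every treated mouse lay above every vehicle mouse. Hilpda, a droplet protein that hypoxia and fatty acids induce, stood at 1.10 ± 0.42 (edgeR adjusted p = 0.426). The 15 genes of PPAR partners and oxidation had a median of 0.36, with 13 positive; the uncoupling protein Ucp2 stood at −0.19 ± 0.34 and the factor Cebpb at 0.82 ± 0.24, the latter without overlap and passed by DESeq2 (adjusted p = 0.0351) but not by edgeR (adjusted p = 0.297; 0.0351 to 0.695 over 16 alternatives). In TREM2 signalling and osteopontin receptors, 12 genes with a median of 0.22, 0 passed by either tool and 0 were at an unadjusted p under 0.05. The adaptor Tyrobp stood at −0.18 ± 0.28 and the integrin Itgb1 at 0.26 ± 0.29.

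The 12 list genes that DESeq2 passed are named because that test called them. Marco (3.47 in DESeq2), the proton pump subunit Atp6v0d2 (3.41), Fabp3 (2.71), Sort1 (2.60), Lipa, the cathepsins Ctsd (1.61), Ctsl (1.09) and Ctsb (0.95), Cd9 (1.38), Itgax (0.94) and Cebpb were higher. G0s2, an inhibitor of the lipase ATGL, was lower (−2.53), at 20.1, 8.06 and 14.4 CPM in vehicle and 2.00, 1.44 and 3.81 CPM in treated mice. None of the 12 passed in edgeR, where their adjusted p ran from 0.0738 (Atp6v0d2) to 0.297 (Cebpb). Ctsd stood at 998, 842 and 1183 CPM against 3768, 2326 and 3107 CPM, and Marco at 44.9, 11.4 and 32.2 CPM against 311, 98.8 and 626 CPM.

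In endothelial cells 64 of the 87 list genes were fitted, 32 positive and 32 negative, with a median of −0.001 beside 0.019 over all genes. In edgeR 0 passed, while 11 had an unadjusted p under 0.05. DESeq2 passed 1 as higher (Apoe) and 1 as lower (Cstb). Apoe stood at 193, 88.1 and 92.1 CPM in vehicle and 371, 370 and 177 CPM in treated endothelial cells (1.36 ± 0.38, edgeR adjusted p = 0.0873, DESeq2 adjusted p = 0.0184; 0.00334 to 0.318 over 14 alternatives), with treated 3 under vehicle 1. Gpihbp1, which holds lipoprotein lipase on the capillary wall, stood at 1572, 223 and 344 CPM against 468, 604 and 947 CPM (−0.15 ± 0.84), with vehicle 1 far above the other vehicle mice. The lipoprotein receptor Scarb1 stood at 0.83 ± 0.45, Stab1 at −0.15 ± 0.22, the caveolin Cav1 at 0.18 ± 0.31 and Dbi at −0.78 ± 0.25. Lipa (0.24 ± 0.22), Hilpda (−0.64 ± 0.40), and the oxidation enzymes Hadha (−0.01 ± 0.21) and Acadl (0.01 ± 0.22) were within about 2 SE of 0. Ctsb stood at −0.67 ± 0.25 with every treated mouse below every vehicle mouse, Ctsl at 0.01 ± 0.25, Itgb1 at −0.19 ± 0.28 and the protease Adam10 at 0.28 ± 0.22.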

How the data were processed

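Gene by barcode UMI counts were deposited by the authors for 6 libraries; per the submitters' processing notes they used Cell Ranger 5.0.1 and the build mm10. Which annotation they used is not given in the labels or headers. The 10 genes and the 7 lists were chosen with earlier results of these data known. Barcodes with at least 500 UMIs, 250 genes and at most 20% mitochondrial UMIs were kept (39928), and 2926 likely doublets were removed at 0.8% per 1000 barcodes with the highest Scrublet scores, since Scrublet's own threshold marked few. Cells were clustered in scanpy 1.11.5 without integration (31 clusters, 189 sub-clusters); sub-clusters were named from fixed markers, and 3363 cells stayed unnamed. Cluster names are rebuilt, not the authors'. Counts were summed per mouse and class and fitted in edgeR 4.0.16 (TMM, filterByExpr, robust quasi-likelihood, two-sided, Benjamini-Hochberg at 0.05; R 4.3.3), with DESeq2 1.42.0 as an alternative. The scripts were tested on simulated data. From each list, genes past the threshold, or else the 2 most abundant, are named; DESeq2 calls and difference calls were added after their values were seen. Coordinates are from GENCODE M21 (GRCm38), matched by identifier. Where nothing says that mice came from separate litters, p-values measure the spread between these mice only.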

Additional observations from a re-analysis of the deposited data

Results flagged for a closer look

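A term for class by treatment, tested in edgeR over the 12 macrophage and endothelial sums, passed for 2 genes of the lipid lists. Over all 11631 genes it passed 0.146% as higher and 0.146% as lower. The lists were chosen with earlier results of these libraries known, and the term contains the macrophage contrast. These 2 calls are therefore not independent evidence that the response differs between the classes. Ctsb, the lysosomal cathepsin B, had a difference of −1.58 ± 0.23 (endothelial minus macrophage, log2; adjusted p = 0.0455). It stood at 1330, 1301 and 1311 CPM in vehicle and 2621, 2933 and 2003 CPM in treated macrophages, and at 861, 637 and 1062 CPM against 558, 587 and 600 CPM in endothelial cells, so all 3 treated mice lay above the vehicle mice in one class and below them in the other. Sort1, the sorting receptor sortilin, had a difference of −4.01 ± 0.64 (adjusted p = 0.0467). It stood at 9.65, 7.94 and 11.7 CPM against 52.4, 23.0 and 103 CPM in macrophages, and at 18.7, 11.1 and 5.09 CPM against 3.10, 4.08 and 4.09 CPM in endothelial cells, where it was too low for the filter of the endothelial fit. Over 15 alternatives Ctsb passed in 7 (adjusted p up to 0.206) and Sort1 in 8 (up to 0.187).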

How the results depend on the processing

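In macrophages edgeR called 0 genes; the count was 283 in DESeq2, 74 without the filter on low counts, 1 with doublets kept, 4 at most 10% mitochondrial UMIs, 6 with sums thinned to the smallest, and 0 without any 1 mouse. The lipid list count of 0 was 12, 3, 0, 1 and 1 under these, in that order, and 0 without any 1 mouse. In endothelial cells the main count of 194 was 884 without the filter, 106 with doublets kept, 5 with thinned sums, 310 without genes that were below 10% of another class, 2 with treated 1 and 2 summed, and from 2 (without treated 1) to 948 (without vehicle 1) with 1 mouse left out; it was 3, 54, 121 and 398 without treated 2, vehicle 3, treated 3 and vehicle 2. The endothelial list count of 0 was 2 in DESeq2, 4 without the filter, 1 without genes low beside another class, and 0 to 8 with 1 mouse left out, 8 being without vehicle 1, the mouse with 47 endothelial cells; 3 and 1 passed without vehicle 2 and vehicle 3. For the difference in response the count of 34 was 109 in DESeq2, 616 without the filter, 1 with doublets kept, 7 in C1q macrophages only, 79 without genes low beside another class, 2 with treated 1 and 2 summed, and 3 to 312 with 1 mouse left out: 3, 4 and 39 without vehicle 1, 2 and 3 and 3, 14 and 312 without treated 1, 2 and 3. The cause of these shifts was not tested, apart from the number of genes tested without the filter. Of the 10 genes, 7 had treated macrophages above vehicle in every mouse, 7 or 8 without any 1 mouse, and 3 without sub-clusters A and B. Those sub-clusters were singled out after their levels of these genes were seen, so the last count does not measure robustness. By share of cells, 5 separated the groups, 4 at 1000 UMIs and 6 unthinned, with no count over all genes to set beside these.

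The replicate numbers share only a name: deviations of same-numbered mice correlated at −0.0099 to 0.044 in macrophages and −0.053 to 0.063 in endothelial cells, and not every mouse correlated best with its own number. With the number as a replicate block, edgeR called 14 genes in macrophages (1 of the lists) and 66 in endothelial cells (0 of the lists).

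With 3 mice in a group and 160317 UMIs in the smallest endothelial sum, the response of low genes there (Lpl, Gpnmb, Trem2) could not be placed. Leaving out a mouse gives groups of 2 and 3 that share the pooled spread of the fit.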
